A study of Mus musculus with 8 samples.

Results

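Total RNA from 2 mouse organs, brain and kidney, was compared across the genes that either organ expressed. Of the 27179 genes in the deposited table, 14738 (54.2%) had a log2 value above 0, that is above 1 CPM (counts per 1000000 reads of the scaled library size), in at least 2 of the 4 brain and kidney libraries, and these genes made up the comparison. Each organ was kept in 2 ways. One brain library and 1 kidney library came from tissue flash frozen after harvest, and 1 library of each organ came from paraffin blocks (FFPE) of tissue fixed with 10% formalin. All RNA was extracted with Trizol and sheared in a PIXUL sonicator, and FFPE tissue was deparaffinised first. Heart and liver libraries of the same study entered the fit only to estimate the spread of each gene. The labels name no strain, age or sex, and do not say whether a library holds 1 animal or several, or whether organs came from the same animals. The p-values therefore measure the spread between these libraries. Libraries are given below with frozen tissue before FFPE tissue, and a difference is brain minus kidney on the log2 CPM scale, so that a positive one means higher in brain. It is followed by its standard error from the fit, with n = 2 libraries an organ. The genes nearest to the entry level were Adat3 and Tpbgl, whose second highest value was 0.02 on the log2 scale and which were kept, and Gm10647 and Gm19966, with −0.03, which were not.

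As background, the kidney filters plasma in glomeruli lined by podocytes and returns most of the filtrate to the blood along the nephron, a chain of epithelial segments (proximal tubule, thick ascending limb, distal convoluted tubule, collecting duct) that each carry their own set of transporters. Much of that work is done by the proximal tubule, which burns fatty acids and makes glucose, and is rich in mitochondria and peroxisomes. The brain is made of neurons, which signal through ion channels and released transmitter, and of glia, which insulate axons, clear transmitter and serve as its immune cells.

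The 4 libraries held 16807233 and 10180972 reads in brain and 18729510 and 15593121 reads in kidney. The deposited values use effective library sizes that are these totals times 1.5 and 1.76 in brain and 0.912 and 1.42 in kidney. Defining markers followed the labels. Snap25, a synaptic fusion protein, had 8103 and 10461 in brain and 0 and 13 reads in kidney. The myelin gene Mobp had 3674 and 2059 in brain and 0 and 1 reads in kidney. The tubular endocytosis receptor Lrp2 had 87 and 27 in brain and 57974 and 62612 reads in kidney. The water channel Aqp2 of the collecting duct had 0 and 0 in brain and 606 and 1337 reads in kidney. Aqp4, a water channel used as a marker of astrocytes, did not separate the organs, with 1080 and 1581 in brain and 172 and 1459 reads in kidney. Markers of the other organs of the series had far fewer reads here than there. The heart myosin Myh6 had 5 and 38 in brain and 107 and 85 reads in kidney and the plasma protein Alb 228 and 3 in brain and 56 and 33 reads in kidney, against 146976 and 186885 reads of Myh6 in heart and 366650 and 483059 reads of Alb in liver. Myh6 was called higher in kidney (limma adjusted p = 0.025), a call lost without frozen brain or without frozen kidney. The 2 preservations of an organ did not hold like tissue in every respect. Xist, transcribed from the inactive X chromosome of female cells, had 13170 and 9954 in brain and 1 and 15389 reads in kidney. The Y-linked gene Ddx3y had 0 and 224 in brain and 525 and 450 reads in kidney. Frozen brain thus held Xist and no read of Ddx3y, frozen kidney held Ddx3y and 1 read of Xist, and both FFPE libraries held both. Fat2, a cadherin of cerebellar granule cells, had 1 and 2341 in brain and 3 and 33 reads in kidney. Neurod2, a transcription factor of cortical and hippocampal neurons, had 1 and 367 in brain and 0 and 1 reads in kidney, so the frozen brain library had few reads of either. Every organ difference below is the mean over such a pair, and what mixed sex or brain region adds to it was not tested.

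**Figure D1:**
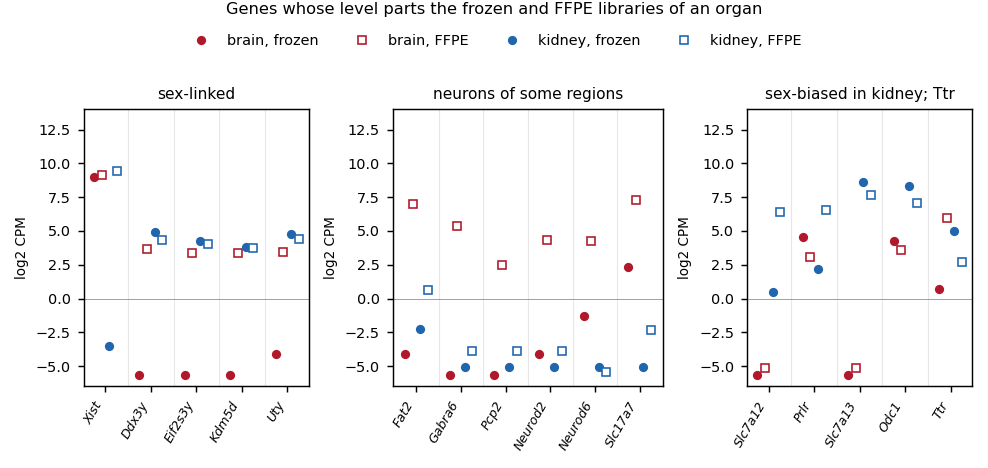
Log2 CPM of sex-linked genes, of neuronal genes known from some brain regions, and of genes known to differ between male and female mouse kidney, with Ttr, in the 2 brain and 2 kidney libraries. The frozen brain library had no read of Ddx3y and the frozen kidney library held 1 Xist read, while FFPE brain held reads of Fat2, Gabra6 and Neurod2 that frozen brain did not match.

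Most tested genes differed between the organs. At a limma adjusted p under 0.05, 8736 of 14738 genes (59.3%) were called, of which 4583 (31.1% of those tested) were higher in brain and 4153 (28.2%) were higher in kidney. A list whose shares lie near these does not stand out by its counts. A member under 1 CPM in both libraries of 1 organ entered through the other organ, so its direction is built in. Near-complete counts in lists that hold such members carry little weight by themselves. A further 6002 genes were not called. The size of the differences was large. With a fitted difference over 2-fold, 3798 called genes were higher in brain and 3363 in kidney. Over 32-fold, 1267 were higher in brain and 622 in kidney. Over 1024-fold, 82 were higher in brain and 88 in kidney. These folds come from the fit, in which a library without reads keeps a small added value, so they are not lower bounds. Camkv, counted among the 82, had a lower bound of 717-fold. No read fell on 170 tested genes in either kidney library and on 76 in either brain library. Such genes can enter the test through both libraries of the other organ alone, so a large difference is built into them. The median difference over all tested genes was 0.07. The balance of directions rested on the scaling. With plain library totals as sizes, brain values rise by 0.52 in the median, and 6067 genes were higher in brain and 2750 in kidney, so that 68.8% of calls, in place of 52.5%, were higher in brain. Quantile normalization gave 4329 brain and 5165 kidney calls and median centring 4221 and 4578, so most calls were then higher in kidney. In that order they moved the median by −0.21 and −0.13. Genes and lists with differences of this order are given below with that in view, and most differences named are far larger.

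**Figure D2:**
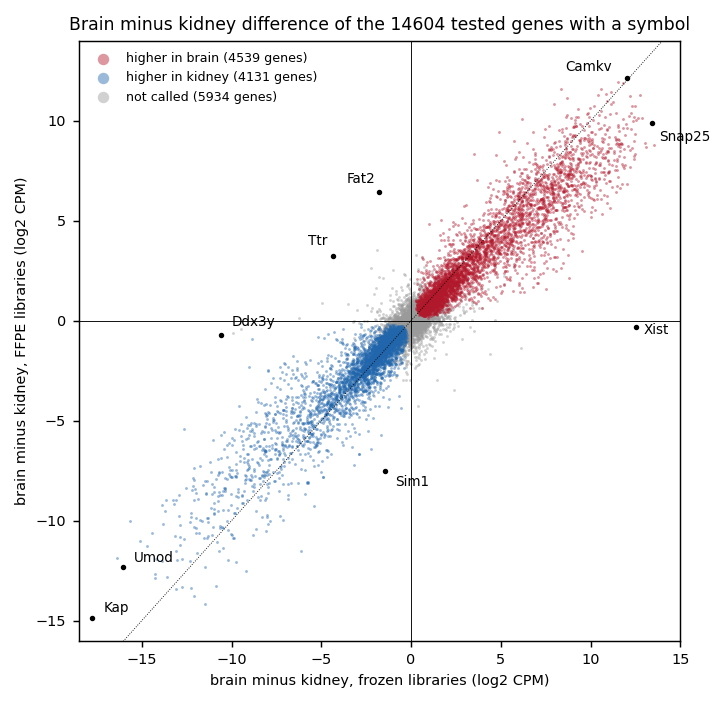
Brain minus kidney difference of each tested gene with a symbol in frozen (x axis) and FFPE (y axis) tissue, in log2 CPM, coloured by the limma call on both preservations together. Most called genes lie along the dotted line of equal differences, while the sex-linked genes Xist and Ddx3y and the genes Fat2, Ttr and Sim1 lie far from it.

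The largest differences were those of genes with few or no reads in the other organ. Among the 12 largest in brain, 5 had no read in either kidney library. Camkv, a neuronal protein related to calmodulin kinases (chromosome 9, 107935851 to 107949691), had 121 and 102 in brain and 0 and 0 CPM in kidney, at least 717-fold higher in brain (limma adjusted p = 1.35e-05). Tmem130, a membrane protein, had 204 and 56.9 in brain and 0 and 0 CPM in kidney. Pcsk1n, which encodes the proSAAS precursor of secretory granules, had 138 and 53.7 in brain and 0 and 0 CPM in kidney. Bcas1, a gene of myelinating oligodendrocytes, had 103 and 84.3 in brain and 0 and 0 CPM in kidney. Jph4, which joins plasma membrane and endoplasmic reticulum in neurons, had 87 and 88.7 in brain and 0 and 0 CPM in kidney. That the organs do not overlap for these 5 follows from how they were chosen. The other 7 included Snap25, the receptor subunit Gabrb2 for the inhibitory transmitter GABA, the GABA transporter Slc6a11, the myelin gene Mobp, the Ras exchange factor Rasgrf1 and the sodium-calcium exchanger Slc24a2, and had 1 to 13 reads in FFPE kidney and 0 in frozen kidney. Snap25 (chromosome 2, 136713439 to 136782428) had 321 and 584 in brain and 0 and 0.589 CPM in kidney, a difference of 11.66 ± 0.98 (limma adjusted p = 2.29e-05).

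On the kidney side the largest difference of all belonged to Kap, an androgen-regulated protein of the proximal tubule (chromosome 6, 133849855 to 133853667). It had 0 and 0.0558 in brain and 4381 and 2479 CPM in kidney, with 1 read in FFPE brain, a ratio of 142710 (95% counting interval 25613 to 5636800) in favour of kidney (limma adjusted p = 1e-05). Umod, the uromodulin secreted by the thick ascending limb (chromosome 7, 119462708 to 119479262), had 0 and 0.112 in brain and 1329.6 and 723 CPM in kidney, a ratio of 21304 (95% counting interval 5897 to 175920) (limma adjusted p = 6.84e-05). Slc34a1, the main sodium-phosphate cotransporter of the proximal tubule, had 0 and 0.223 in brain and 1696 and 958 CPM in kidney, a difference of −14.14 ± 1.17 (limma adjusted p = 2.12e-05). The other 9 were likewise genes of tubule membranes or metabolism. They were the amino acid transporter Slc7a13, the steroid-handling reductase Akr1c21, the glycine acyltransferase-like Keg1, the sulfotransferase Sult1d1, the brush border protease Mep1a, the amino acid transport partner Cltrn, the glycosyltransferase Ugt3a2, and the acyl-CoA synthetases Acsm3 and Acsm2. Slc7a13, Akr1c21 and Sult1d1 had no read in either brain library. Acsm2, the most read of the 9, had 0.119 and 0.279 in brain and 2113 and 1278 CPM in kidney.

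Genes of neurons were higher in brain. Of 20 genes of the synaptic vesicle cycle, 20 were called higher in brain, with a median difference of 5.96, against 31.1% and a median of 0.07 over all tested genes. With a log2 value above 0 asked of all 4 libraries, 10 were called higher in brain and 0 in kidney (median 5). In bulk tissue, fewer cells of a type and less RNA per cell cannot be told apart. The vesicle calcium sensor Syt1 had 366 and 432 in brain and 0.117 and 1.18 CPM in kidney, a difference of 9.89 ± 0.84 (limma adjusted p = 2.45e-05). Syn1, which tethers vesicles, had 97.4 and 119 in brain and 0 and 0.227 CPM in kidney. The 3 smallest differences in the list were those of Vamp2, Nsf and Sh3gl2. Vamp2, the vesicle SNARE, had 166 and 168 in brain and 14.9 and 21.6 CPM in kidney (3.21 ± 0.20). Nsf, the ATPase that recycles SNAREs, had 252 and 229 in brain and 21.5 and 22.4 CPM in kidney (3.45 ± 0.19). The endophilin Sh3gl2 had 54.6 and 105 in brain and 12.3 and 14.1 CPM in kidney (2.52 ± 0.43). Both kidney libraries held reads of these genes, at lower levels than either brain library.

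Genes of excitatory and inhibitory transmission showed the same direction. Of 15 genes of glutamatergic neurons and glutamate receptors, 14 were higher in brain with a median difference of 9.42, or 9.05 with genes lacking kidney reads set at their bound of 3 reads a library. When a log2 value above 0 was asked of all 4 libraries, 4 were called higher in brain and 0 in kidney (median 3.43). The transporter Slc17a6, which fills vesicles with glutamate in subcortical neurons, had 71.5 and 44.3 in brain and 0 and 0 CPM in kidney, at least 364-fold higher in brain. The AMPA receptor subunit Gria2 had 279 and 370.1 in brain and 0.176 and 0.363 CPM in kidney (10.16 ± 0.65, limma adjusted p = 6.75e-06). The obligate NMDA receptor subunit Grin1 had 131 and 136 in brain and 0 and 0.0906 CPM in kidney. The scaffold Shank2 had 51.1 and 88.2 in brain and 34 and 45.8 CPM in kidney and was not called (0.77 ± 0.30, limma adjusted p = 0.058). Slc17a7, the vesicular transporter of cortical and cerebellar neurons, stood at 5.08 and 156 in brain and 0 and 0.181 CPM in kidney, with the frozen library far below the FFPE library of the same organ. Of 14 genes of GABAergic neurons and inhibitory receptors, 12 were higher in brain, with a median difference of 9.40 (9.20 at the bounds). Gad2, which makes GABA, had 257 and 102 in brain and 0 and 0.227 CPM in kidney. Gad1, which does so too, had 181 and 115 in brain and 0.0585 and 0.634 CPM in kidney. The transmitter peptide Sst had 30.6 and 15.5 in brain and 0 and 0 CPM in kidney, at least 141-fold higher in brain. Npy (3.21 and 3.91 in brain and 0.995 and 1.31 CPM in kidney) and Gphn, an anchor of inhibitory receptors that also acts in cofactor synthesis (34.4 and 35.6 in brain and 33.5 and 33.2 CPM in kidney), were not called (limma adjusted p = 0.0773 and 0.732). Of 11 tested genes of monoamine and acetylcholine neurons, 9 were higher in brain and 2 in kidney. The exceptions were Ddc, the decarboxylase that makes dopamine and serotonin (6.66 and 3.02 in brain and 35.3 and 27.3 CPM in kidney, −2.78 ± 0.27, limma adjusted p = 5.06e-05), and the serotonin transporter Slc6a4 (0.0793 and 1.01 in brain and 1.7 and 1.99 CPM in kidney, −2.54 ± 0.80, limma adjusted p = 0.0232). Th, which makes the dopamine precursor, had 4.96 and 2.4 in brain and 0 and 0.227 CPM in kidney. The call of Slc6a4 was lost without frozen brain or without frozen kidney, as was that of Th, while Ddc was called whichever library was left out.

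Ion channels of excitable membranes and the axonal and dendritic cytoskeleton were called higher in brain in every tested case, 16 of 16 in each list, with median differences of 9.04 (8.35 at the bounds) and 8.04. Members such as Scn2a and Nefl entered the test through the brain libraries alone, so their direction is built in. The axonal sodium channel subunit Scn2a had 211 and 249.8 in brain and 0.527 and 0.498 CPM in kidney (8.74 ± 0.52, limma adjusted p = 5.15e-06). The potassium channel Kcna2 had 139.7 and 255 in brain and 0.351 and 1.5 CPM in kidney (7.96 ± 0.37). The neurofilament gene Nefl had 99.9 and 107 in brain and 0.293 and 0.227 CPM in kidney. The axonal motor Kif5a had 1089.6 and 739 in brain and 2.28 and 3.22 CPM in kidney (8.36 ± 0.71, limma adjusted p = 2.35e-05). Mapt, the tau gene, differed least of the cytoskeletal list with 202 and 167 in brain and 80.8 and 70.4 CPM in kidney, a difference of 1.28 ± 0.21 (limma adjusted p = 0.000902), so tau RNA was at 70.4 CPM or more in both kidney libraries.

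Granins and peptide-processing genes, which load the dense-core vesicles of neurons and endocrine cells, were higher in brain for 13 of 13 tested members, with a median difference of 8.58, or 6.30 at the bounds. The share over all tested genes was 31.1%. Members such as Scg3, Chga, Chgb and Scg2 entered the test through the brain libraries alone, so their direction is built in. Scg3, a granule sorting protein, had 64.8 and 62.4 in brain and 0 and 0 CPM in kidney. Chga, the chromogranin A precursor, had 40.7 and 28.4 in brain and 0 and 0 CPM in kidney, and neither had a kidney read. Chgb had 83.5 and 117 in brain and 0 and 0.408 CPM in kidney (9.78 ± 0.97, limma adjusted p = 5.24e-05). Scg2 had 208 and 75.1 in brain and 0.0585 and 0.317 CPM in kidney (9.50 ± 0.81, limma adjusted p = 2.45e-05). Cpe, a carboxypeptidase that trims prohormones, had 592 and 403 in brain and 20.1 and 13.6 CPM in kidney, a difference of 4.89 ± 0.26. Some neuropeptide and granin genes are known to answer to CREB, a factor that binds the cyclic AMP response element TGACGTCA, so promoters were searched for it on both strands from 250 bases before to 50 bases after the transcript starts of the RefSeq promoter table. It was in the promoter of 125 of 3443 genes higher in brain (3.63%), of 70 of 3181 higher in kidney (2.20%) and of 193 of 4667 not called (4.14%). Over all tested genes with a promoter it was in 388 of 11291 (3.44%), near the brain share. Over all promoters it was in 549 of 27025 (2.03%). The share was thus lower for genes higher in brain than for genes not called. Among genes higher by over 8 log2 units it was in 14 of 284 for brain (4.93%) and in 1 of 166 for kidney (0.602%). Sst, Chgb and Scg2 carried it, as did other genes such as Syn1. These 3 were picked by name, and all 3 were at 15.5 CPM or more in both brain libraries and at 0.41 CPM or less in both kidney libraries. Windows of 100 bases upstream of their transcript starts (RefSeq, GRCm38.p6; Sst on chr16:23890845-23890944, minus strand; Chgb on chr2:132781520-132781619, plus strand; Scg2 on chr1:79440045-79440144, minus strand) are shown with the element in capitals.
Sst: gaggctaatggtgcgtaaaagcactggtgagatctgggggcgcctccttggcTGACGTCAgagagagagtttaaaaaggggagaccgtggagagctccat
Chgb: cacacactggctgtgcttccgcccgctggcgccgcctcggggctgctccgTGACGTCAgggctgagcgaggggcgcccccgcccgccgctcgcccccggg
Scg2: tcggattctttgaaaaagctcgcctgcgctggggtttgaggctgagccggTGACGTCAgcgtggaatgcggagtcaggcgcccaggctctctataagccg
The element begins 48, 72 and 68 bases before the transcript start of that table, which for Sst lies inside the span annotated for the whole gene. A match describes the letters and shows no binding.

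Markers of brain regions were called less uniformly, and the 2 brain libraries differed among themselves. Of 8 tested cerebellar genes, 4 were higher in brain. The transcription factors Zic1 (44.6 and 69.6 in brain and 0 and 0 CPM in kidney) and Zic2 (13.8 and 25.9 in brain and 0 and 0 CPM in kidney) and the synaptic organiser Cbln1 (14.6 and 36.2 in brain and 0 and 0.363 CPM in kidney) were read in both brain libraries. Gabra6, known from granule cells, had 0 and 742 in brain and 0 and 1 reads in kidney. Pcp2, known from Purkinje cells, had 0 and 98 in brain and 0 and 1 reads in kidney. Frozen brain had no read of either, and neither entered the test. Calb1, a calcium buffer of Purkinje cells and of the distal tubule, was at 67.9 and 68.2 in brain and 153 and 196 CPM in kidney and was not called (limma adjusted p = 0.132). Of 11 tested forebrain genes, 8 were higher in brain, with a median difference of 4.63 over the list. Emx1, a cortical transcription factor, was called higher in kidney with 0 and 1.34 in brain and 10.2 and 6.75 CPM in kidney, a difference of −5.66 ± 1.57 (limma adjusted p = 0.0134); without frozen brain, or without frozen kidney, it was not called.

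Glial genes followed the brain as a group but not to the last member. Of 16 genes of myelin and oligodendrocytes, 13 were higher in brain and 1 in kidney, with a median difference of 7.40 (7.11 at the bounds). Mag, an adhesion protein of myelin, had 103 and 61.3 in brain and 0.234 and 0.136 CPM in kidney, a difference of 8.60 ± 0.79 (limma adjusted p = 3.62e-05). Aspa, which cleaves N-acetylaspartate, was higher in kidney with 10.3 and 7.26 in brain and 37.6 and 27.3 CPM in kidney (−1.89 ± 0.25, limma adjusted p = 0.00025). Mal, a membrane sorting protein of myelin and renal epithelium, had 124 and 79.4 in brain and 59.8 and 89.4 CPM in kidney and was not called (limma adjusted p = 0.411), nor was the lipid-making Ugt8a (32.2 and 48.7 in brain and 69.3 and 55.1 CPM in kidney, limma adjusted p = 0.43). Of 8 genes of oligodendrocyte precursors, 6 were higher in brain, led by Ptprz1 (152 and 108 in brain and 0.293 and 0.816 CPM in kidney), while Pdgfra and Cspg4, which pericytes and fibroblasts also express, were not called (limma adjusted p = 0.154 and 0.378).

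Of 14 astrocyte genes, 11 were higher in brain and 2 in kidney, with a median difference of 6.45. The glutamate transporter Slc1a2 had 1258 and 1634 in brain and 5.21 and 5.3 CPM in kidney (8.08 ± 0.37, limma adjusted p = 1.9e-06). The intermediate filament Gfap had 36.9 and 38.8 in brain and 0.117 and 0.0906 CPM in kidney (8.20 ± 0.68, limma adjusted p = 2.15e-05). Aldh1l1, a folate enzyme much used as an astrocyte marker, was higher in kidney with 26.3 and 14.2 in brain and 219 and 146 CPM in kidney (−3.21 ± 0.26, limma adjusted p = 1.79e-05). The bicarbonate cotransporter Slc4a4, which also carries bicarbonate out of the proximal tubule, was higher in kidney with 208 and 187 in brain and 739 and 577 CPM in kidney (−1.73 ± 0.25, limma adjusted p = 0.000381). Aqp4 overlapped between the organs, with 42.8 and 88.3 in brain and 10.1 and 66.1 CPM in kidney, and was not called (limma adjusted p = 0.0617). Of 14 macrophage and microglia genes, 6 (42.9%) were higher in brain and 3 (21.4%) in kidney, against 31.1% and 28.2% of all tested genes. The microglial receptor P2ry12 had 7.93 and 6.7 in brain and 0.293 and 0.317 CPM in kidney (4.47 ± 0.62, limma adjusted p = 0.000336). Cx3cr1 had 18.3 and 10.2 in brain and 2.46 and 1.59 CPM in kidney (2.78 ± 0.51). The mannose receptor Mrc1 of other macrophages had 2.26 and 2.4 in brain and 6.09 and 5.89 CPM in kidney (−1.35 ± 0.30), a call lost without frozen brain. The receptor Csf1r, which all macrophages need, had 29.9 and 20.4 in brain and 31.2 and 29.1 CPM in kidney (limma adjusted p = 0.22). Brain calls in this list came to 3 without frozen brain or without frozen kidney, and kidney calls to 1 without FFPE brain or without frozen kidney.

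Vessel genes split by type. Of 12 genes of endothelium in general, 11 were higher in kidney and 0 in brain, with a median difference of −2.23, against 28.2% of all tested genes. Plvap, of fenestrated endothelium, had 1.47 and 1.12 in brain and 73.7 and 38.4 CPM in kidney (−5.35 ± 0.24, limma adjusted p = 1.86e-06). Kdr, the main receptor for vascular growth factor, had 7.14 and 8.15 in brain and 83.6 and 55.1 CPM in kidney (−3.15 ± 0.20). Pecam1 had 7.81 and 7.04 in brain and 35.9 and 38 CPM in kidney (−2.31 ± 0.17). Of 10 genes known from the blood-brain barrier, 5 (50%) were higher in brain and 3 (30%) in kidney, against 31.1% and 28.2% of all tested genes. The thyroxine carrier Slco1c1 had 13.6 and 20.05 in brain and 0 and 0.0906 CPM in kidney. The amino acid transporter subunit Slc7a5 had 21.5 and 20.9 in brain and 1.05 and 1.13 CPM in kidney (4.25 ± 0.36, limma adjusted p = 2.29e-05). Abcg2, an efflux pump of barrier endothelium and the proximal tubule, had 6.23 and 8.88 in brain and 162 and 121 CPM in kidney (−4.23 ± 0.25, limma adjusted p = 5.15e-06). The claudin of endothelium, Cldn5, was higher in brain (10.9 and 7.09 in brain and 2.28 and 2.54 CPM in kidney, 1.86 ± 0.36), although most endothelial genes were not. Of 13 genes of smooth muscle, pericytes and fibroblasts, 10 were higher in kidney (median −2.23), with the collagen Col3a1 at 2.3 and 2.85 in brain and 60.6 and 47.8 CPM in kidney (−4.38 ± 0.24). All 6 tested blood cell genes were higher in kidney (median −2.30), with the globin Hbb-bs at 19.3 and 11.7 in brain and 140.3 and 41.2 CPM in kidney (−2.34 ± 0.28). Of 9 tested choroid plexus genes, 2 (22.2%) were higher in brain and 3 (33.3%) in kidney, near the shares of all tested genes. The brain count came to 1 without frozen brain or either kidney library. Otx2 had 32 and 42 in brain and 0 and 0 reads in kidney, while Aqp1, Folr1 and Kl, which renal tubules also express, were higher in kidney.

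**Figure D3:**
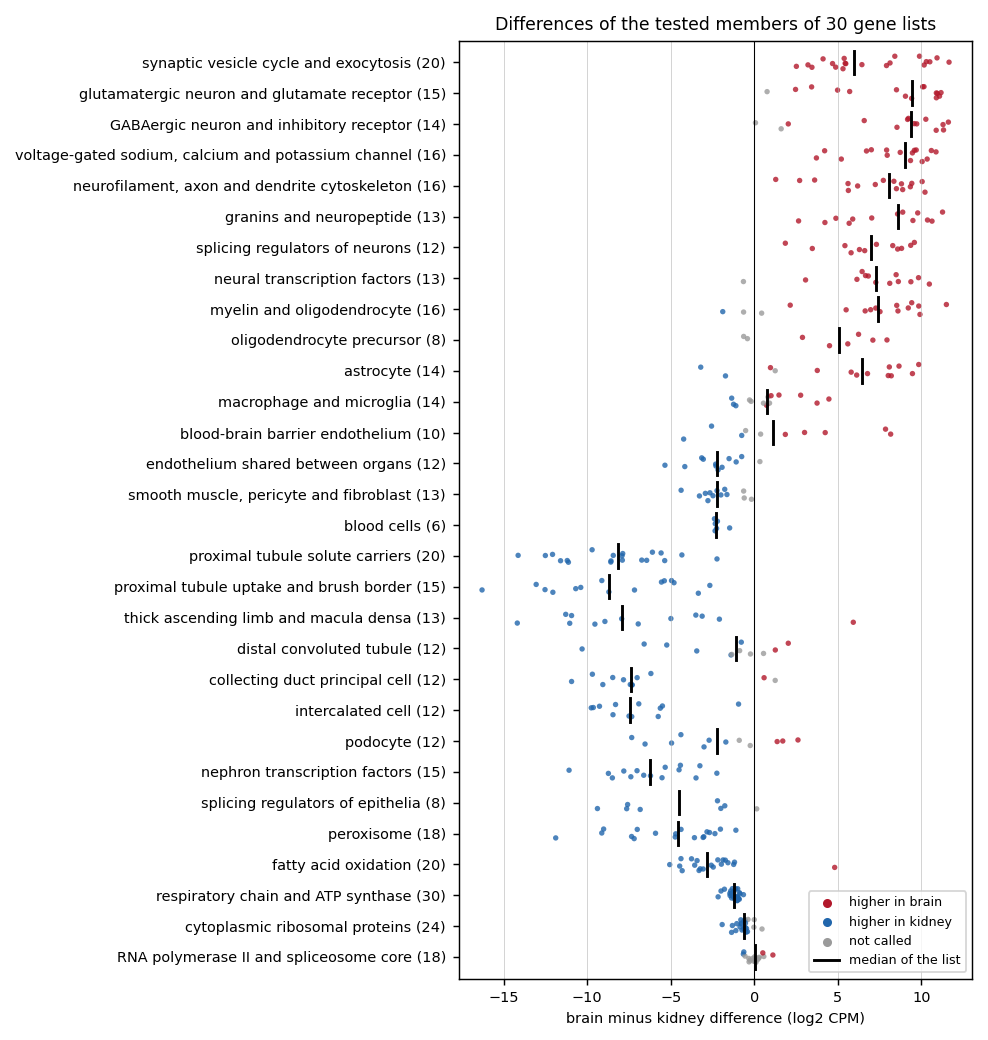
Brain minus kidney difference (log2 CPM, x axis) of every tested member of 30 gene lists, with the number tested in brackets, coloured by the limma call, and the list median as a black bar. Neuronal lists lie on the right, nephron lists on the left, and the core transcription list is centred near 0.

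Proximal tubule genes were higher in kidney in all 35 tested cases of 2 lists. Members such as Slc5a2, Slc22a12 and Dpep1 entered the test through the kidney libraries alone, so their direction is built in. The 20 solute carriers had a median difference of −8.18. Slc5a2, which recovers most filtered glucose, had 0 and 0 in brain and 170.1 and 111 CPM in kidney, at least 972-fold higher in kidney (limma adjusted p = 5.41e-06). The urate exchanger Slc22a12 had 0.119 and 0.223 in brain and 612 and 316 CPM in kidney (−11.20 ± 1.31, limma adjusted p = 0.000126). Slc3a1, the heavy subunit of the cystine transporter, had 0.436 and 0.782 in brain and 275 and 199.8 CPM in kidney (−8.59 ± 0.43, limma adjusted p = 2.72e-06). Members used by other cells differed less, with Slc7a8 at 15.5 and 22.3 in brain and 91.4 and 84 CPM in kidney (−2.23 ± 0.28). Slc22a8, an anion transporter that barrier endothelium also uses, had 5.12 and 6.14 in brain and 118 and 109.8 CPM in kidney (−4.34 ± 1.00, limma adjusted p = 0.00551), a call lost without frozen brain or without FFPE kidney. The 15 genes of uptake and brush border had a median of −8.71 (−8.10 at the bounds). Lrp2, the megalin receptor, had 3.45 and 1.51 in brain and 3393 and 2837 CPM in kidney (−10.39 ± 0.47, limma adjusted p = 1.86e-06). Its partner Cubn had 0.317 and 2.57 in brain and 552 and 498 CPM in kidney (−9.13 ± 1.01). The peptidase Dpep1 had 0 and 0 in brain and 49.9 and 30.2 CPM in kidney, at least 275-fold higher in kidney.

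Later nephron segments had the same direction. For members such as Slc12a1 and Slc12a3 it is built in, as they entered the test through the kidney libraries alone. Of 13 tested genes of the thick ascending limb and macula densa, 12 were higher in kidney (median −7.94) and 1, the nitric oxide synthase Nos1, was higher in brain with 27.9 and 19.8 in brain and 0.234 and 0.544 CPM in kidney (5.93 ± 0.66, limma adjusted p = 9.56e-05). The cotransporter Slc12a1, target of loop diuretics, had 0.159 and 0.447 in brain and 711 and 749 CPM in kidney (−11.29 ± 1.64, limma adjusted p = 0.00042). The growth factor precursor Egf had 1.15 and 1.34 in brain and 989 and 899.9 CPM in kidney (−9.54 ± 0.25, limma adjusted p = 6.13e-07). Of 12 genes of the distal convoluted tubule, 6 (50%) were higher in kidney and 2 (16.7%) in brain, against 28.2% and 31.1% of all tested genes. Slc12a3, target of thiazide diuretics, had 0.238 and 0.223 in brain and 299 and 351 CPM in kidney (−10.31 ± 0.77, limma adjusted p = 1.32e-05). The magnesium channel Trpm6 had 2.46 and 1.56 in brain and 18.5 and 25.2 CPM in kidney (−3.45 ± 0.91). Pvalb, a calcium buffer of this segment and of cortical interneurons, was the higher of the 2 in brain (12.6 and 20.9 in brain and 3.57 and 4.35 CPM in kidney, 2.03 ± 0.70, limma adjusted p = 0.0343) and its call was lost whichever library was left out. The other was Slc41a3, a magnesium carrier, and neither was called without frozen brain or without frozen kidney. Trpm6 was not called without FFPE brain or without frozen kidney.

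In the collecting duct, 10 of 12 tested genes of principal cells were higher in kidney (median −7.37, or −7.32 at the bounds). Aqp2, the water channel moved by vasopressin, had 0 and 0 in brain and 35.5 and 60.6 CPM in kidney, at least 328-fold higher in kidney. Scnn1a, a subunit of the epithelial sodium channel, had 0.872 and 0.558 in brain and 48.6 and 57.4 CPM in kidney (−6.19 ± 0.46, limma adjusted p = 1.32e-05). The mineralocorticoid receptor Nr3c2 was the exception that was called higher in brain, with 19.8 and 28.8 in brain and 11.8 and 21.5 CPM in kidney (0.59 ± 0.21, limma adjusted p = 0.0419), and this call was lost without either brain library, without frozen kidney, under quantile normalization and under median centring. All 12 genes of intercalated cells, which secrete acid or base, were higher in kidney (median −7.42, or −6.80 at the bounds). Members of both lists, such as Aqp2, Scnn1a, Slc4a1 and Rhcg, entered the test through the kidney libraries alone, so their direction is built in. Slc4a1, the chloride-bicarbonate exchanger, had 0.357 and 0.335 in brain and 19.2 and 20.7 CPM in kidney (−5.75 ± 0.52, limma adjusted p = 3.44e-05). The ammonia carrier Rhcg had 0.634 and 0.112 in brain and 35.3 and 37.6 CPM in kidney (−6.92 ± 0.77). Car2, a carbonic anhydrase of many tissues, had 40.01 and 49.98 in brain and 87.4 and 84.6 CPM in kidney (−0.94 ± 0.27, limma adjusted p = 0.0155), a call lost without either brain library, without frozen kidney or on plain library totals. In podocytes, 7 of 12 genes (58.3%) were higher in kidney and 3 (25%) in brain, against 28.2% and 31.1% of all tested genes. The slit diaphragm gene Nphs1 (0.397 and 0.447 in brain and 12.2 and 15.5 CPM in kidney, −4.95 ± 0.70) was higher in kidney, while the scaffold Magi2 (71.9 and 76.6 in brain and 8.95 and 16.3 CPM in kidney, 2.62 ± 0.67), the phosphatase Ptpro (36.9 and 20.4 in brain and 6.79 and 10.4 CPM in kidney) and the phospholipase Plce1 (24.7 and 21.5 in brain and 6.61 and 12 CPM in kidney) were higher in brain. Of these 3 brain calls 1, that of Plce1, was left without frozen brain or without frozen kidney.

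Of 11 tested genes of the renin-angiotensin system and of endocrine kidney, 7 were higher in kidney and 0 in brain. Ren1, the renin of juxtaglomerular cells, had 0 and 0.0558 in brain and 8.25 and 18.4 CPM in kidney. The vitamin D receptor Vdr had 0.0793 and 0.335 in brain and 98.7 and 81.1 CPM in kidney (−8.88 ± 0.89, limma adjusted p = 5.65e-05). The coreceptor Kl had 2.5 and 9.44 in brain and 432 and 381 CPM in kidney (−6.38 ± 0.90, limma adjusted p = 0.00036). Agt, the angiotensin precursor, had 35.5 and 8.77 in brain and 14.4 and 11.3 CPM in kidney and was not called (limma adjusted p = 0.407). No gene of 8 from the urothelium of the renal pelvis passed the entry level, with summed levels of 1.55 and 1.67 CPM in brain and 2.46 and 8.88 CPM in kidney. Genes known to be higher in male than in female mouse kidney were all higher in kidney than in brain (8 of 8). Their kidney values differed by library, with Slc7a13 at 0 and 0 in brain and 392 and 207 CPM in kidney, Odc1, which starts polyamine synthesis, at 19.4 and 12.1 in brain and 317 and 135 CPM in kidney, and Cyp4b1 at 0 and 0.279 in brain and 1030.3 and 318 CPM in kidney. Slc7a12, known to be higher in female kidney, had 0 and 0 in brain and 1.35 and 82.8 CPM in kidney. In the prolactin receptor Prlr the preservations pointed opposite ways, with 23.5 and 8.54 in brain and 4.45 and 95.8 CPM in kidney (limma adjusted p = 0.689). Frozen kidney, the library with Y-linked RNA and 1 Xist read, was above FFPE kidney in all 3 male-biased genes named here and below it in both female-biased genes. The summed level of all 8 male-biased genes was 7421 and 3653 CPM in kidney. Frozen kidney was also above FFPE kidney in other tubule genes such as Umod (1329.6 and 723 CPM), though not in Slc12a1 (711 and 749 CPM). What sex adds to these values was not tested.

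Within transport families, members differed in direction. Of 12 tested genes of the sodium pump, which keeps the ion gradients of every cell, and its accessory proteins, 6 were higher in brain and 4 in kidney (50% and 33.3%, against 31.1% and 28.2% of all tested genes). Among the beta subunits, Atp1b2 was higher in brain (161 and 166 in brain and 6.38 and 8.52 CPM in kidney, 4.47 ± 0.37), and Atp1b1 was higher in kidney (416 and 452 in brain and 873 and 785 CPM in kidney, −0.93 ± 0.17), a call lost on plain library totals. Atp1b3 had 35.9 and 35.5 in brain and 32.8 and 38.3 CPM in kidney, a difference of 0.01 ± 0.20 (limma adjusted p = 0.97). The accessory Fxyd2 had 0.357 and 0.223 in brain and 334 and 198 CPM in kidney (−9.71 ± 0.73, limma adjusted p = 1.35e-05) while Fxyd7 had 6.23 and 5.53 in brain and 0 and 0 CPM in kidney, at least 38-fold higher in brain.

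Cation-chloride cotransporters showed a comparable division. Slc12a5, the neuronal exporter that keeps chloride low, had 242 and 195 in brain and 0.995 and 1.4 CPM in kidney (7.49 ± 0.31, limma adjusted p = 1.55e-06). Slc12a7 had 3.01 and 2.79 in brain and 69.3 and 59.9 CPM in kidney (−4.46 ± 0.21, limma adjusted p = 2e-06). Of 21 proton pump genes, 6 (28.6%) were higher in brain and 9 (42.9%) in kidney, so the brain share was near that of all tested genes, 31.1%. On plain library totals the counts turned to 9 in brain and 6 in kidney, with a median of 0.34 in place of −0.17. The intercalated cell subunits Atp6v1b1 (0 and 0.0558 in brain and 34.2 and 36.6 CPM in kidney) and Atp6v0a4 (0.0793 and 0.168 in brain and 105 and 118 CPM in kidney) were near 0 in brain. Their widely used counterparts Atp6v1b2 (181 and 142 in brain and 138 and 80.03 CPM in kidney, 0.61 ± 0.18) and Atp6v0a1 (159.6 and 146 in brain and 26.9 and 26.5 CPM in kidney, 2.51 ± 0.19) were higher in brain. Atp6v1g2 had 56.3 and 67.7 in brain and 0.936 and 2.31 CPM in kidney (5.36 ± 0.40, limma adjusted p = 1.35e-05). The shared Atp6v1e1 had 75.4 and 53 in brain and 78.7 and 49.8 CPM in kidney (limma adjusted p = 0.949). Without FFPE brain the brain calls in this family came to 3, and that of Atp6v1b2 was lost without either brain library or without FFPE kidney.

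Of 7 tested water channels, 6 were higher in kidney and the seventh was Aqp4. Of 12 tested claudins, which seal or open the paths between cells, 10 were higher in kidney, led by Cldn8 (0.0397 and 0 in brain and 26.9 and 46.3 CPM in kidney) and Cldn2 (0.159 and 0.726 in brain and 155 and 135 CPM in kidney, −8.63 ± 0.61). The claudin of myelin, Cldn11, was higher in brain (63.6 and 57.3 in brain and 0.117 and 2.49 CPM in kidney, 6.64 ± 1.06, limma adjusted p = 0.000718). Among 13 cadherins, 9 were higher in brain and 2 in kidney. Cdh10 (19.8 and 20.8 in brain and 0 and 0 CPM in kidney), Cdh18 (16.3 and 21.3 in brain and 0 and 0 CPM in kidney) and Cdh9 (6.94 and 8.71 in brain and 0 and 0 CPM in kidney) had no kidney read. Epithelial Cdh1 (0.674 and 1.06 in brain and 93.9 and 107 CPM in kidney, −6.85 ± 0.32, limma adjusted p = 2.05e-06) and kidney-specific Cdh16 (0 and 0.168 in brain and 290.3 and 224 CPM in kidney) were higher in kidney. Of 12 inward rectifier potassium channels, 8 were higher in brain and 4 in kidney. Kcnj15 had 0.0397 and 0.223 in brain and 444 and 453 CPM in kidney (−11.84 ± 0.59, limma adjusted p = 2.54e-06). Kcnj16 had 14.5 and 13.5 in brain and 285 and 280.3 CPM in kidney (−4.34 ± 0.63). Kcnj10, which pairs with Kcnj16 in tubules and clears potassium in astrocytes, was higher in brain at 144 and 119 in brain and 32.1 and 35.8 CPM in kidney (1.95 ± 0.24, limma adjusted p = 0.000155).

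**Figure D4:**
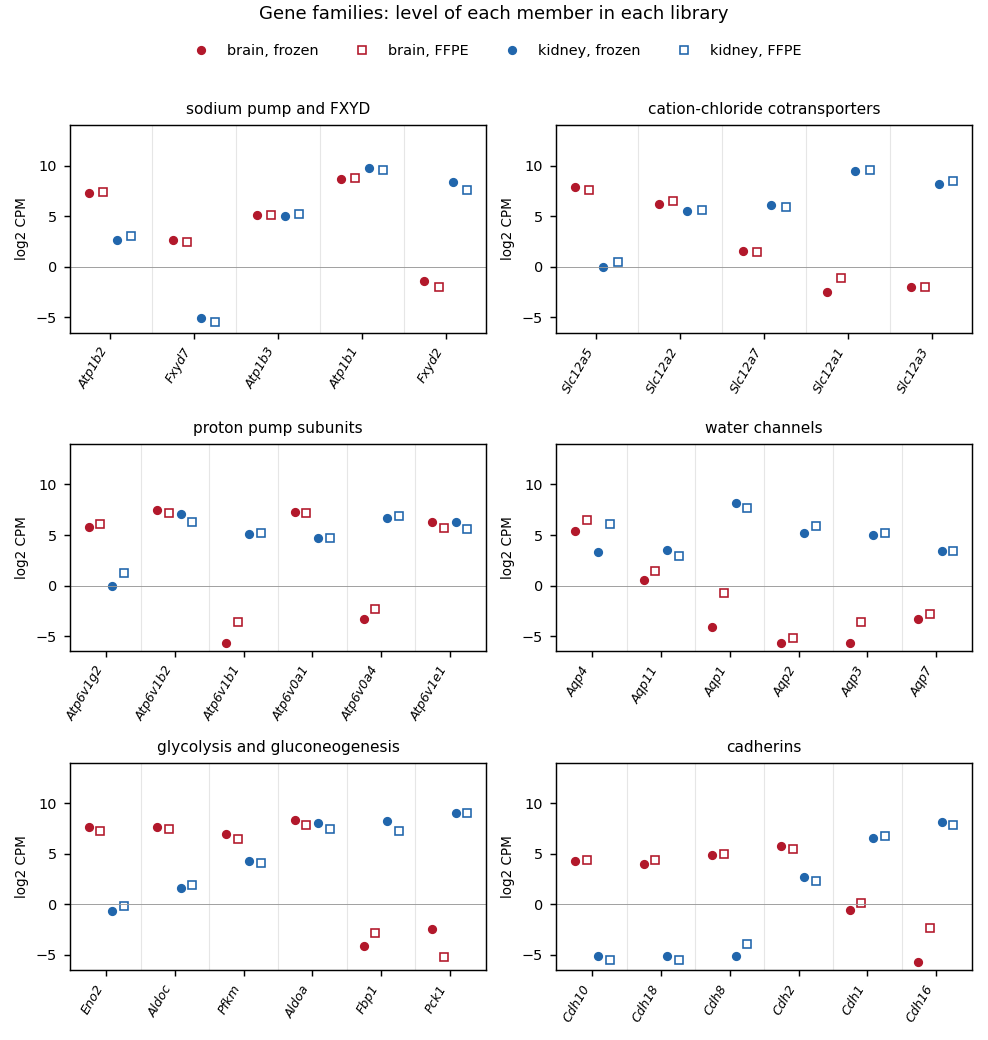
Log2 CPM of members of 6 gene families in the 2 brain and 2 kidney libraries. Slc12a5 is higher in both brain libraries and Slc12a1 in both kidney libraries. Atp1b3 and Atp6v1e1 are at like levels in all 4 libraries, and Atp6v1b1 and Cdh16 are at or near 0 in brain.

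Metabolic isozymes differed in direction. Of 25 genes of glycolysis and gluconeogenesis, 7 (28%) were higher in brain and 11 (44%) in kidney, with a median difference of −0.08. Over all tested genes the shares were 31.1% and 28.2%, so the brain share was near that of all genes. Enzymes that make glucose led the kidney side. Pck1 had 0.159 and 0 in brain and 515 and 511 CPM in kidney (−12.83 ± 1.10, limma adjusted p = 2.56e-05). Fbp1 had 0.0397 and 0.112 in brain and 305 and 152 CPM in kidney. G6pc, which releases free glucose, had 0.397 and 0 in brain and 241 and 166 CPM in kidney (−10.86 ± 0.82, limma adjusted p = 1.35e-05). The aldolase Aldoc had 205 and 169.7 in brain and 3.04 and 3.63 CPM in kidney (5.80 ± 0.44, limma adjusted p = 1.48e-05). Aldoa had 316 and 225 in brain and 255 and 173 CPM in kidney and was not called (limma adjusted p = 0.0768). The neuronal enolase Eno2 had 203 and 152 in brain and 0.585 and 0.861 CPM in kidney (7.90 ± 0.59, limma adjusted p = 1.35e-05) while Eno1 had 130.3 and 73.5 in brain and 139 and 77.5 CPM in kidney (limma adjusted p = 0.703). Pfkm and Pkm, at control points of glycolysis, were higher in brain (2.53 ± 0.20 and 1.65 ± 0.16), and both lactate dehydrogenase genes were higher in kidney (−1.72 ± 0.20 for Ldha and −1.45 ± 0.15 for Ldhb). With plain library totals as sizes, 11 genes of the list were higher in brain, against 7.

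Fat and amino acid breakdown were kidney-sided. Of 20 genes of fatty acid oxidation, 19 were higher in kidney (median −2.82). Acadm, the medium-chain dehydrogenase, had 13.4 and 9.72 in brain and 445 and 330.2 CPM in kidney (−5.06 ± 0.19, limma adjusted p = 1.23e-06). Cpt1a, the entry enzyme of mitochondria, had 15.8 and 13 in brain and 177 and 135 CPM in kidney (−3.43 ± 0.19, limma adjusted p = 4.33e-06). The exception was the neuronal isoform Cpt1c, with 27.5 and 25.7 in brain and 0.644 and 1.31 CPM in kidney (4.81 ± 0.60, limma adjusted p = 0.000175). All 18 peroxisomal genes were higher in kidney (median −4.55), from Acaa1a (15.5 and 10.2 in brain and 34.2 and 21.4 CPM in kidney, −1.10 ± 0.17, not called on plain library totals) to Hao2 (0 and 0 in brain and 56.4 and 142 CPM in kidney). Cat, which breaks down hydrogen peroxide, had 15.8 and 12.6 in brain and 367 and 239 CPM in kidney (−4.39 ± 0.16, limma adjusted p = 1.05e-06). Of 19 genes of amino acid breakdown and creatine synthesis, 17 were higher in kidney (median −3.79). Gatm, the first step to creatine, had 44.2 and 44.2 in brain and 264 and 186 CPM in kidney (−2.32 ± 0.31). Gamt, the second step, had 4.12 and 2.35 in brain and 4.39 and 2.67 CPM in kidney and was not called (limma adjusted p = 0.796).

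Of 21 genes of drug metabolism, 18 were higher in kidney and 1 in brain (median −6.19). Cyp2e1 had 1.11 and 0.112 in brain and 449 and 191 CPM in kidney (−9.53 ± 0.65). Ugt2b38 had 0 and 0 in brain and 174 and 81.2 CPM in kidney, at least 843-fold higher in kidney; several Cyp, Ugt and Gst genes have near-identical copies, between which reads may have been split or dropped. Aldh1a1 was higher in brain with 10.9 and 25.6 in brain and 2.28 and 1.9 CPM in kidney (2.99 ± 0.34, limma adjusted p = 0.000109). Genes that handle glutamate, glutamine and ammonia were divided, with 9 of 17 (52.9%) higher in brain and 4 (23.5%) in kidney. The shares over all tested genes were 31.1% and 28.2%. Gls2 had 6.58 and 6.09 in brain and 0.0585 and 0.0906 CPM in kidney. Slc38a1, a glutamine carrier of neurons, had 139.6 and 145 in brain and 2.46 and 5.08 CPM in kidney (5.32 ± 0.33, limma adjusted p = 6.36e-06). Glul, the glutamine synthetase of astrocytes, had 383 and 387 in brain and 180.1 and 215 CPM in kidney (0.97 ± 0.16, limma adjusted p = 0.000906). Creatine and adenylate kinases were divided too, with Ckb higher in brain (271 and 215 in brain and 50.04 and 29.3 CPM in kidney, 2.66 ± 0.23) and Ak4 higher in kidney (−2.59 ± 0.24). For sugar transport, the neuronal glucose transporter Slc2a3 had 41.7 and 47.1 in brain and 0.644 and 1.63 CPM in kidney (5.39 ± 0.42, limma adjusted p = 1.64e-05). Slc2a2, of tubule and liver, had 0 and 0.112 in brain and 42.9 and 40.3 CPM in kidney. Slc2a1 had 22.1 and 28.4 in brain and 19.5 and 19 CPM in kidney (limma adjusted p = 0.185).

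Genes of mitochondria were mostly higher in kidney. All 30 tested nuclear genes for oxidative phosphorylation were higher in kidney, with differences from −2.17 for Cox7a1 to −0.65 for Ndufb5 and a median of −1.20. The ATP synthase subunit Atp5b had 336 and 242 in brain and 953 and 603 CPM in kidney (−1.41 ± 0.18, limma adjusted p = 0.000231). The calls of Cox7a1 and Ndufb5 were each lost without frozen brain or either kidney library, and on plain library totals. With plain library totals as sizes, 17 of 30 were called and the median was −0.68, and without the preservation term 18 were called. Of 13 protein-coding genes of the mitochondrial genome, a list made after values were seen, 10 were higher in kidney (median −1.86), with CYTB at 1513 and 1769.7 in brain and 4935 and 7193 CPM in kidney (−1.86 ± 0.45, limma adjusted p = 0.0068). COX1, the most read, had 3315 and 3539 in brain and 7312 and 10834 CPM in kidney and was not called (limma adjusted p = 0.0645). Without frozen brain, FFPE brain or FFPE kidney the count came to 6, 5 and 6, and CYTB was not called when any 1 library was left out. Of 24 cytoplasmic ribosomal protein genes, 19 were higher in kidney with a median of only −0.62, and the count came to 4 on plain library totals, to 12 without frozen brain, to 12 without frozen kidney, to 13 without FFPE brain and to 8 without FFPE kidney; these genes also have many processed pseudogenes that may take part of their reads. Of 18 core genes of RNA polymerase II and the spliceosome, 2 were higher in brain and 2 in kidney, with a median of 0.02; on plain library totals 6 were higher in brain and 0 in kidney. The counts came to 1 and 1 without frozen brain or without frozen kidney, to 1 and 2 without FFPE kidney, and to 1 and 3 under quantile normalization or median centring.

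Some abundant genes were alike in both organs. Among protein-coding genes within 0.25 log2 units in both preservations (916 genes), the 6 with the highest mean level were Sptbn1, App, Wdfy3, Chd3, Hnrnpu and Ctnnb1. The spectrin Sptbn1 had 672 and 665 in brain and 592 and 629 CPM in kidney (0.13 ± 0.17, limma adjusted p = 0.538). App, the amyloid precursor protein, had 529 and 454 in brain and 561 and 457 CPM in kidney (−0.05 ± 0.16, limma adjusted p = 0.816). That none of the 6 was called follows from how they were chosen, since the called differences nearest to 0 were 0.374 and −0.379. On plain library totals each of the 6 lay 0.52 higher. Other genes were abundant in both and still differed. Kif1b, a motor of organelle transport, had 595 and 637 in brain and 113 and 113 CPM in kidney (2.44 ± 0.15, limma adjusted p = 5.53e-06). The receptor Lrp1 had 470.1 and 384 in brain and 141 and 123 CPM in kidney (1.69 ± 0.17, limma adjusted p = 6.11e-05). The ferritin chain Fth1 was higher in kidney with 432 and 369 in brain and 1281 and 781 CPM in kidney (−1.32 ± 0.24, limma adjusted p = 0.00156).

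Regulators of RNA processing were split by organ. All 12 splicing regulators known from neurons were higher in brain (median 6.96). Members such as Rbfox3 and Srrm4 entered the test through the brain libraries alone, so their direction is built in. Rbfox3, the NeuN antigen, had 44.7 and 73.9 in brain and 0.0585 and 0.363 CPM in kidney (8.29 ± 1.07, limma adjusted p = 0.000225). Srrm4, which drives neuronal microexons, had 24.6 and 36.6 in brain and 0.585 and 0.77 CPM in kidney (5.43 ± 0.29, limma adjusted p = 3.52e-06). Of 8 regulators known from epithelia, 7 were higher in kidney (median −4.52), with Rbm47 at 0.595 and 1.56 in brain and 211 and 184 CPM in kidney (−7.64 ± 0.35, limma adjusted p = 1.9e-06). Ptbp1, which represses neuronal exons outside neurons, had 12.1 and 14.6 in brain and 64.6 and 58.1 CPM in kidney (−2.20 ± 0.17, limma adjusted p = 1.44e-05). Its paralogue Ptbp2 went the opposite way, with 54.2 and 56.3 in brain and 10.9 and 21.2 CPM in kidney (1.86 ± 0.26, limma adjusted p = 0.000359). Rest, the repressor of neuronal genes in other tissues, was higher in kidney with 5.12 and 3.02 in brain and 27.1 and 25.2 CPM in kidney (−2.73 ± 0.22, limma adjusted p = 2.05e-05). Of 8 genes of its complex 3 were higher in brain and 3 in kidney, 37.5% each, against 31.1% and 28.2% of all tested genes. Fewer were called in each direction when any 1 library was left out.

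Transcription factor lists were called mostly toward 1 organ, against 31.1% higher in brain and 28.2% higher in kidney over all tested genes. Hnf4a entered the test through the kidney libraries alone and Myt1l and Sox2 through the brain libraries alone, so their direction is built in. All 15 tested nephron factors were higher in kidney (median −6.22). Hnf4a, which drives proximal tubule genes, had 0.317 and 0.0558 in brain and 401 and 334 CPM in kidney (−11.09 ± 0.73, limma adjusted p = 7.71e-06). Tfcp2l1, a factor of distal segments, had 1.63 and 2.46 in brain and 229 and 301 CPM in kidney (−7.02 ± 0.28, limma adjusted p = 1.46e-06). Sim1, also known from the hypothalamus, had 6.42 and 0.168 in brain and 18 and 36.1 CPM in kidney, so that the difference was −1.48 in frozen and −7.53 in FFPE tissue (−4.51 ± 1.44 over both, limma adjusted p = 0.0249); the call was lost without either FFPE library. Of 13 tested neural factors, 12 were higher in brain (median 7.27, or 6.83 at the bounds), among them Myt1l (148 and 154 in brain and 0 and 0.363 CPM in kidney, 10.48 ± 0.95, limma adjusted p = 3.42e-05) and Sox2 (28.4 and 19.4 in brain and 0 and 0 CPM in kidney), which had no kidney read. The exception was Pou3f3, a factor of both cortex and nephron, at 23.2 and 28.8 in brain and 43.1 and 38.2 CPM in kidney (limma adjusted p = 0.576).

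Promoters were also searched for the HNF4 site CAAAGTCCA on both strands, as Hnf4a was itself among the largest kidney differences. It was in the promoter of 26 of 3181 genes higher in kidney (0.817%), of 10 of 3443 higher in brain (0.290%) and of 22 of 4667 not called (0.471%). Over all tested genes with a promoter it was in 58 of 11291 (0.514%), and over all promoters in 150 of 27025 (0.555%). Among genes higher by over 8 log2 units it was in 6 of 166 for kidney (3.61%) and in 0 of 284 for brain. A longer motif searched beside it matched 0 of 11291 promoters of tested genes. Aadat, Treh and Agxt2, chosen after their values were seen, carried the HNF4 letters within 100 bases before a transcript start of the promoter table. For Aadat and Agxt2 that start lies inside the span annotated for the whole gene, so the windows overlap that span. Aadat, of lysine and kynurenine breakdown, had 0.0793 and 0.0558 in brain and 91.1 and 158 CPM in kidney. The trehalase Treh had 0 and 0 in brain and 39.3 and 19.4 CPM in kidney. Agxt2, an aminotransferase of the mitochondria, had 0 and 0.0558 in brain and 26.3 and 19.8 CPM in kidney, so all 3 were at or near 0 in brain. The windows (RefSeq, GRCm38.p6, plus strand; Aadat on chr8:60506002-60506101, Treh on chr9:44673112-44673211, Agxt2 on chr15:10358433-10358532) are shown with the match in capitals.
Aadat: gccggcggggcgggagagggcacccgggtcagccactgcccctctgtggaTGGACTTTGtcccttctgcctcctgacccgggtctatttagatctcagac
Treh: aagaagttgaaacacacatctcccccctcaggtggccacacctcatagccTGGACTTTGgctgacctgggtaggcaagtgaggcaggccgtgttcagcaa
Agxt2: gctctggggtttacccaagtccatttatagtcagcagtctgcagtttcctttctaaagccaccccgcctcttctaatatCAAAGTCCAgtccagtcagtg
In the first 2 windows the match is on the opposite strand, as TGGACTTTG, and the match begins 72, 71 and 21 bases before that transcript start.

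Hox genes, which pattern the trunk along the body axis and stay silent in the forebrain, formed a block. The list was drawn up after values were seen. Of 39 Hox genes in the table, 27 passed the entry level and all 27 were higher in kidney, with a median difference of −7.00 (−6.55 at the bounds). Genes that passed did so through the kidney libraries, so the count by itself carries no weight. The summed level of all 39 was 0.0397 and 11.0 CPM in brain and 202 and 275 CPM in kidney. Hoxd8 had 0 and 0.0558 in brain and 26.6 and 29.1 CPM in kidney. Hoxa10, known for roles in kidney and limb, had 0 and 0.0558 in brain and 17.9 and 18.5 CPM in kidney. Hoxb3 had 0 and 1.79 in brain and 5.03 and 10.3 CPM in kidney and Hoxb5 0 and 1.06 in brain and 4.16 and 7.79 CPM in kidney, while the frozen brain library held 1 read of 1 of the 39 genes. The calls came to 23 without frozen brain and 20 without frozen kidney; Hoxb3 was not called without frozen kidney, and Hoxb5 without frozen brain or either kidney library. The microRNA gene Mir196a-1, which lies in the Hoxb cluster (chr11:96265164-96265265), had 0 and 0 in brain and 21 and 25 reads in kidney, at least 8.36-fold higher in kidney (limma adjusted p = 0.000625).

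The opposite case was the imprinted Dlk1 to Dio3 interval on chromosome 12 (chr12:109452485-110281097), whose maternal copy makes long noncoding RNAs and clusters of snoRNAs and microRNAs. It too was picked after values were seen. The table holds 74 genes of the interval. Of these, 16 passed the entry level and 16 were higher in brain (median 6.47, or 4.84 at the bounds). Meg3 apart, they passed through the 2 brain libraries, so this count too carries no weight by itself. Meg3, the long noncoding RNA at its start, had 2836 and 2991 in brain and 0.995 and 5.66 CPM in kidney (10.24 ± 0.46, limma adjusted p = 1.86e-06). Rian, host of snoRNAs, had 251 and 240.4 in brain and 0.234 and 0.997 CPM in kidney (8.89 ± 0.56, limma adjusted p = 6.46e-06). Dlk1, a paternally expressed ligand of the Notch family, had 40.9 and 10.2 in brain and 0.234 and 0.363 CPM in kidney (6.00 ± 0.95, limma adjusted p = 0.000683). Summed over all 74 genes the level was 3224 and 3333 CPM in brain and 2.22 and 8.66 CPM in kidney. These counts are of sheared total RNA, in which reads from a hairpin cannot be told apart from reads of the longer transcript around it.

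MicroRNA genes were few. Of 17 that passed the entry level, 7 (41.2%) were higher in brain and 3 (17.6%) in kidney, against 31.1% and 28.2% of all tested genes. In brain, 6 of the 7 lay in the Dlk1 to Dio3 interval, and the other was Mir1983. In kidney they were Mir196a-1, Mir30c-2 with 4 and 3 in brain and 19 and 25 reads in kidney (−2.62 ± 0.67, limma adjusted p = 0.00915), and Mir568; the calls of Mir30c-2 and Mir568 were lost without frozen brain or either kidney library, and that of Mir568 also on plain library totals. Mir1188 had 100 and 39 in brain and 0 and 0 reads in kidney. Mir376c had 33 and 42 in brain and 0 and 0 reads in kidney. Mir3070a had 48 and 29 in brain and 0 and 0 reads in kidney. Its neighbour Mir3070b had 33 and 19 in brain and 0 and 0 reads in kidney, so reads were few even in brain and absent in kidney. Some of the mature sequences that RefSeq (GRCm38.p6) gives for these genes are shown, all from the plus strand, with the seed (bases 2 to 8) in capitals. They are products whose genes differed, but not every called gene or every arm is printed. Which arm the reads came from was not counted.
mmu-miR-196a-5p (Mir196a-1, chr11:96265187-96265208): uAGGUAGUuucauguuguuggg
mmu-miR-30c-5p (Mir30c-2, chr1:23291714-23291736): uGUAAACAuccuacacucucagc
mmu-miR-3070-5p (Mir3070a, chr12:109587959-109587981): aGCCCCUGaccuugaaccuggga
mmu-miR-3070-3p (Mir3070a, chr12:109587999-109588020): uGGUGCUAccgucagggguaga
mmu-miR-3070-2-3p (Mir3070b, chr12:109588648-109588669): uGGUGCUAuggucagggguaga
mmu-miR-1188-5p (Mir1188, chr12:109611841-109611861): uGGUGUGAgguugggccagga
mmu-miR-376c-5p (Mir376c, chr12:109722733-109722754): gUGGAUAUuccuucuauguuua
The 2 Mir3070 genes share both seeds: their 5p products have the same sequence, and the 3p products have the same seed GGUGCUA. The kidney-higher genes and the brain-higher genes shown share no seed.

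**Figure D5:**
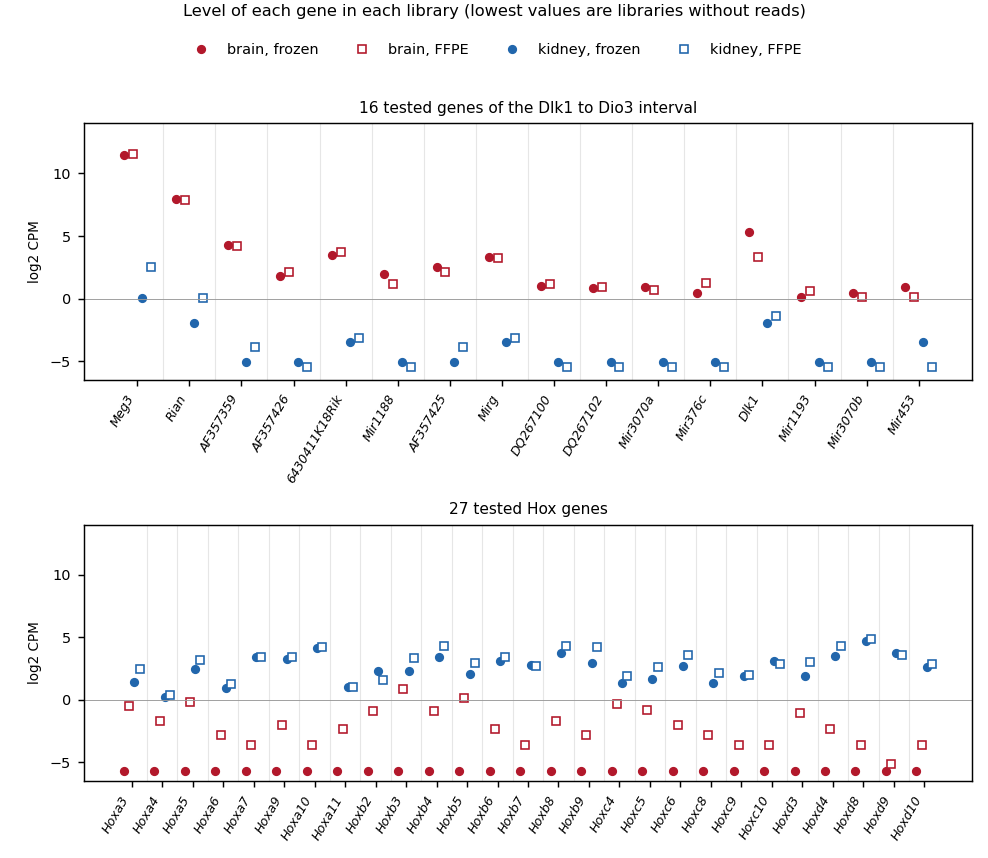
Log2 CPM of the 16 tested genes of the Dlk1 to Dio3 interval (upper panel) and of the 27 tested Hox genes (lower panel) in the 2 brain and 2 kidney libraries. In the upper panel both brain libraries lie above both kidney libraries for each gene, and in the lower panel both kidney libraries lie above both brain libraries, with frozen brain at its no-read value.

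Clustered protocadherins, which give neurons surface identities, were called higher in brain for 54 of 55 tested genes (median 3.07), against 31.1% of all tested genes, on a list also made after values were seen. Fewer were called when any 1 library was left out, while the median then lay between 3.12 and 3.35. Pcdhac2 had 16.1 and 15.4 in brain and 0 and 0.136 CPM in kidney. It entered the test through the brain libraries alone, so its direction is built in, as for any member under 1 CPM in both kidney libraries. Many of these genes share exons or close sequence, so their counts are not separate. Of 88 tested snoRNA genes 9 were higher in brain and 41 in kidney (median −1.06); the kidney count came to 15 without frozen brain, to 20 without frozen kidney, to 26 without FFPE kidney and to 23 on plain library totals. Most snoRNAs lie within introns of other genes, and no source used here says whether strand was used in counting.

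Longer genes were more often higher in brain. Among protein-coding genes the share called higher in brain was 23.2% of those with a median span of 3.19 kb, 27.2% at 30.7 kb, 45.2% at 132 kb and 78.5% in the group of longest genes, with a median span of 738 kb (168 of 214 genes), against 31.1% of all 13759. The share called higher in kidney ran the other way, at 34.7%, 30.2%, 23.2% and 8.88% of the same groups. The median span was 40.4 kb for genes higher in brain, 21.8 kb for those higher in kidney and 22.6 kb for those not called. By chromosome, the X had 45.5% of 495 tested genes higher in brain and 19.0% higher in kidney, and the mitochondrial genome had 0 of 15 higher in brain and 10 higher in kidney. Chromosome 12 (39.3% of 524 higher in brain) holds the Dlk1 to Dio3 genes, which were 16 of its 206 genes higher in brain. Chromosome 18 (40.6% of 421) holds the clustered protocadherins, which were 54 of its 171. What these clusters add to the shares was not tested. Long noncoding RNAs had 38.2% of 416 genes higher in brain and 19.5% higher in kidney.

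The organ difference was also taken in frozen and in FFPE tissue apart. Across the 14738 genes the 2 differences had Pearson's r = 0.955, which describes genes that share libraries and is no test. The sign was the same in both for 88.3% of all tested genes. The 2 differences were within 1 log2 unit for 80.1% of genes and over 3 units apart for 432. The largest gaps with the frozen difference above the FFPE one were those of Xist (12.54 in frozen and −0.33 in FFPE tissue), Hdc, Vwa5b1, Gabre, Sim1 and Scn9a. In the other direction they were those of Ddx3y (−10.60 and −0.70), Eif2s3y, Kdm5d, Fat2, Uty and Ttr. Scn9a, a sodium channel of sensory and some hypothalamic neurons, had 21.6 and 7.37 in brain and 0 and 0.634 CPM in kidney (6.51 ± 1.42, limma adjusted p = 0.00403), a call lost without frozen brain, and that of Vwa5b1 was lost without either frozen library. Uty was the 1 Y-linked gene that was called (0.0397 and 11 in brain and 27.3 and 20.8 CPM in kidney, −4.88 ± 1.77, limma adjusted p = 0.0417), and its call was lost without frozen brain or either kidney library. Activity-dependent genes also moved with the library. Of 14 tested immediate early and stress genes 7 (50%) were higher in brain and 3 (21.4%) in kidney, against 31.1% and 28.2% of all tested genes. Their median difference was 0.25 in frozen and 2.15 in FFPE tissue. Arc, induced by synaptic activity, had 10.6 and 55.6 in brain and 0.468 and 1.95 CPM in kidney (4.62 ± 1.01, limma adjusted p = 0.00401). Egr1 had 20.5 and 76.6 in brain and 4.68 and 5.44 CPM in kidney (2.97 ± 0.38, limma adjusted p = 0.000199), both higher in FFPE than in frozen brain. The heat shock gene Hspa1b, whose near-identical copy is Hspa1a, was higher in kidney with 0.476 and 2.01 in brain and 9.07 and 16.8 CPM in kidney (−3.62 ± 0.44, limma adjusted p = 0.000159).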

How the data were processed

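Total RNA-seq of mouse brain, heart, kidney and liver, each frozen and FFPE, gave 8 libraries, of which the 4 of brain and kidney were compared. The deposited table holds log2 values per gene. The values themselves show log2 CPM (counts per 1000000 reads of a scaled library size); no source used here states the formula. HISAT2, featureCounts and limma and the build mm10 are named, per the submitters' processing notes; no version or setting is given. Removing the log2 scale and scaling gave whole reads to within 1e-06 once 0.5 reads were taken off, so read numbers and depth could be given. CPM printed here are those reads without the added 0.5.

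Genes with a log2 value above 0 in at least 2 of the 4 libraries were fitted with limma 3.58.1 in R 4.3.3 on the deposited values of all 8 libraries, with tissue and preservation as terms, a mean-variance trend and Benjamini-Hochberg adjustment over all 14738 genes at 0.05. Where an organ had 0 reads in both libraries, the fold was taken against 3 reads per library and is a lower bound. Where it had 1 to 3, the ratio of reads is given with an exact 95% interval. Both cover counting error only. Annotation and sequences came from RefSeq (GRCm38.p6), which matched 93.0% of genes by Entrez ID. Genes were named as the 12 largest called differences a direction, 6 a direction among genes high in both organs, 6 alike in both, and 6 a direction by gap between preservations, with up to 6 members a list by size of difference. Other list members named, among them the exceptions and the genes not called, were chosen after their values were seen. Some genes these rules name are not reported here. Members and lists were chosen with earlier results of these data known. Alternatives are given in the closing section; the labels number no replicates, so brain and kidney replicates 1 and 2 stand for frozen and FFPE tissue.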

Additional observations from a re-analysis of the deposited data

Results flagged for a closer look

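For 26 tested genes the brain minus kidney difference had opposite signs in the 2 preservations, by more than 1 log2 unit in each, and 6 of them are named in the text above. The gap between them was not tested, since each rests on 1 library of each organ and preservation. Frozen minus FFPE, the gap was 7.455 for Hdc, which makes histamine (1.98 and 0.67 in brain and 0 and 1.77 CPM in kidney), 6.064 for the receptor subunit Gabre (6.7 and 0.503 in brain and 0.293 and 1.68 CPM in kidney), 5.874 for Prlr (23.5 and 8.54 in brain and 4.45 and 95.8 CPM in kidney) and 4.412 for Alb (9.04 and 0.168 in brain and 3.28 and 1.5 CPM in kidney). It was −8.212 for Fat2 (0.0397 and 131 in brain and 0.176 and 1.5 CPM in kidney) and −7.591 for the thyroxine carrier Ttr (1.59 and 62.9 in brain and 32.7 and 6.62 CPM in kidney). None of the 6 was called over both preservations.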

How the results depend on the processing

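Over both directions the count of called genes lay between 7353 and 9587 under 10 alternatives, and came to 5602 (2708 higher in brain) when a log2 value above 0 was asked of all 4 libraries, which tested 10923 genes. Leaving out 1 library gave 6585 to 7642 calls, of which 3474 to 4021 were higher in brain and 3111 to 3621 in kidney; the organ's lone library was then assumed to vary like the others. Plain library totals as sizes, an alternative chosen after seeing the data, gave 6067 brain and 2750 kidney calls. No named gene that was called changed sign under any alternative.

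Among named genes that were not called, the sign turned. On plain totals the difference was 0.469 for App, 0.415 for Chd3, 0.231 for Csf1r, 0.105 for Cspg4, 0.295 for Ctnnb1, 0.433 for Eno1, 0.377 for Gamt and 0.465 for Wdfy3. Under quantile normalization it was 0.389 for App, −0.153 for Atp1b3, −0.133 for Atp6v1e1, −0.0834 for Gphn and 0.0533 for Wdfy3. Under median centring it was −0.119 for Atp1b3, −0.115 for Atp6v1e1, −0.0572 for Gphn and −0.0192 for Hnrnpu. With log2(CPM + 5) it was 0.216 for Alb and 0.0157 for Ttr, and with voom 0.553 for Alb. Leaving out 1 library, the range was −0.502 to 1.44 for Agt, −3.27 to 1.77 for Alb, −0.102 to 0.00737 for App, −0.231 to 0.251 for Atp1b3, −0.0928 to 0.119 for Atp6v1e1, −0.335 to 0.133 for Chd3. It was −0.993 to 0.172 for Cspg4, −2.58 to 7.22 for Fat2, −1.33 to 4.03 for Gabre, −0.00763 to 0.15 for Gphn, −0.728 to 5.47 for Hdc. It was −0.112 to 0.989 for Mal, −2.7 to 1.61 for Prlr, −3.38 to 2.27 for Ttr, −0.214 to 0.113 for Wdfy3. The cause was not tested. No paired analysis was possible because the labels give no replicate numbers; the preservation term plays the part of a block, and 7738 genes were called without it. Depth limits genes near the 3-read floor, which was 0.139 and 0.195 CPM in the brain libraries.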
